A study of Mus musculus with 6 samples.

Results

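The core genes of the brown adipocyte described here are the 10 genes Ucp1, Cidea, Cox7a1, Cox8b, Dio2, Ppargc1a, Ppargc1b, Prdm16, Zic1 and Ebf2. They were chosen by name, with Ucp1 at their head, and every probe set that carries 1 of these symbols alone was taken. That gave 22 probe sets of 34945 with a single gene symbol, and 10 genes of 18193. Ucp1, Cidea, Cox7a1, Cox8b and Ppargc1b had 1 probe set each, and the other 5 genes had 2 or more.

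The 6 Affymetrix arrays covered epididymal (Epi), subcutaneous (SubQ) and brown (BAT) fat of male mice, each as wild type (WT) and as Kdm4b knockout (KO), with 1 array for each of the 6 groups. All mice were 2 months old, lived at room temperature, ate chow and had been fasted for 6 hours. The KO mice carried the Kdm4b deficiency in the whole body, so no group has the loss in fat cells alone, and the labels say neither which exons are missing nor how many mice gave a sample, nor if 1 mouse gave all 3 depots. The series asks how loss of Kdm4b, which encodes a histone H3 demethylase, leads to obesity. No depot has a replicate, so differences between KO and WT inside a depot are given by size, with no test, and precision is limited by how few arrays there are.

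Values are MAS5 signals, a linear brightness per probe set, and each array had a 2%-trimmed mean of 500.0. A signal floor at the 40th percentile, 63.2, stands for the level below which a probe set is read as dim, and 12650 to 13601 genes lay above it on an array. Each gene is represented by its brightest probe set unless another is named, and differences are on the log2 scale, as KO minus WT or brown minus white. Because the probes of different genes differ in brightness per transcript, signals are compared between arrays and never between genes. Kdm4b itself had signals of 226.746 in WT and 188.435 in KO epididymal fat, 272.137 and 156.687 in subcutaneous fat, and 134.583 and 95.2424 in brown fat. It was above the floor on every array and lower in KO in all 3 depots, as were 17.2% of the genes measured in all 3. The epididymal difference, -0.27, was inside the SD between probe sets of 1 gene described below (0.31). No source used here says if the Kdm4b probes lie inside the deleted region.

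Brown adipocytes burn fuel to make heat. Noradrenaline raises cyclic AMP in the cell, which activates transcription of Ucp1, and the uncoupling protein then lets protons back across the inner mitochondrial membrane without making ATP. Dio2 converts thyroxine to the active thyroid hormone inside the cell, Ppargc1a and Ppargc1b are coactivators that raise mitochondrial gene expression, and Prdm16 and Ebf2 are transcriptional regulators that set and keep brown fat identity. In white fat, scattered beige adipocytes can switch on the same genes.

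Promoters are shown first for Ucp1, Dio2 and Ppargc1a, because these are the 3 genes whose windows hold the core of the cyclic AMP response element. RefSeq promoter sequences (assembly GRCm38.p6, 250 bases before to 50 after the gene start) were matched for 7 of the 10 genes: Ucp1, Cox7a1, Cox8b, Dio2, Ppargc1a, Prdm16 and Zic1. Each is written 5′ to 3′ on the gene's own strand, with capitals marking the match. The windows are chr8:83290098-83290397 (plus strand) for Ucp1, chr12:90738989-90739288 (minus strand) for Dio2 and chr5:51567676-51567975 (minus strand) for Ppargc1a.
Ucp1: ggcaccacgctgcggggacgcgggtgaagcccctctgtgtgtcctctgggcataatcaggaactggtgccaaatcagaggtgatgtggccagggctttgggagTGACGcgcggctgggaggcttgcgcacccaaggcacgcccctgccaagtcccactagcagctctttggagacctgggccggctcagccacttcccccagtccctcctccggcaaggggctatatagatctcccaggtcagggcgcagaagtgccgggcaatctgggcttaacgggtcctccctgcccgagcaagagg
Dio2: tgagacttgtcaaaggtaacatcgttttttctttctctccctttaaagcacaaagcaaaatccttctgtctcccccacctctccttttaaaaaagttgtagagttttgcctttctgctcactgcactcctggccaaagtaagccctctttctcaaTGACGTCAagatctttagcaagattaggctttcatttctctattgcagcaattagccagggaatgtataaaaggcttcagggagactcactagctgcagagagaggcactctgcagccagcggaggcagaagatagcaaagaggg
Ppargc1a: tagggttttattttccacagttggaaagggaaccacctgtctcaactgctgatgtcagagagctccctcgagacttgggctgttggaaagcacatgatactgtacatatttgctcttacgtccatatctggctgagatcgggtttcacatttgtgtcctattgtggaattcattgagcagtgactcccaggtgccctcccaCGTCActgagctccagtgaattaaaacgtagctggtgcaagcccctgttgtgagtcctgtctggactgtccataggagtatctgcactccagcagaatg
The full palindrome TGACGTCA was present in Dio2, 95 to 88 bases before the start, and in none of the other 6 windows. Among all 32851 promoter windows 1.79% held it. The half-site TGACG, searched on both strands, was present in Ucp1 147 to 143 bases before the start, in Dio2 as both strands of the palindrome, and in Ppargc1a 49 to 45 bases before the start on the opposite strand, which shows as CGTCA. These are 3 of 7 windows, beside 20.8% of all promoter windows. Of the other motifs searched on both strands, TATAAA was found in Dio2 (30 to 25 bases before the start) and Cox8b (4 to 9 bases after it). It was in 13.6% of all windows. CCAAT was found in Cox7a1, Prdm16 and Zic1 (37.4%). An oestrogen-related receptor element (TNAAGGTCA, 1.28% of all windows), an EBF element (by name, 0.904%) and a PPAR direct repeat (by name, 0.0396%) had no match in the 7 windows. A match is a run of letters in the window, and no binding was measured here.

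Brown fat was set against the white depots first, since it is the tissue these genes are named for. All 10 genes were brighter on both brown fat arrays than on any white fat array, as were 21 of their 22 probe sets. The same order was found in 24.3% of all genes and 23.4% of all probe sets above the floor on at least 1 array. The probe set outside that pattern was the Prdm16 probe set 1429309_at, whose signal on the brown KO array (89.5463) lay under that of subcutaneous KO fat (102.371). In limma, with depot and genotype as terms, 9 of the 9 members that could be tested were higher in brown fat at an adjusted p under 0.05, where 21.5% of 13232 genes were called higher and 31.2% lower. Their median difference was 3.39, beside -0.11 over all genes tested. With 1 array per group, the SEs, intervals and p-values of all contrasts between depots leave out the spread between mice.

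Ucp1 had signals of 6648.75 (WT) and 4782.71 (KO) in epididymal fat, 2934.34 and 1427.83 in subcutaneous fat, and 44367.1 and 40618.7 in brown fat. Brown fat was far above both white depots, and every white array was also far above the floor. The difference, brown minus white, was 3.64 (SE 0.21, 95% confidence interval 3.10 to 4.19), or 12.5-fold (limma adjusted p = 0.000457, 2 arrays against 4). Cidea, which encodes a lipid droplet protein of thermogenic fat, had signals of 4443.52 and 2982.57 in epididymal, 3153.16 and 3949.47 in subcutaneous and 43033.1 and 39294.8 in brown fat. It was 11.5-fold higher in brown fat (limma adjusted p = 0.000471), and its 4 white arrays lay within 1.49-fold of each other.

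**Figure D1:**
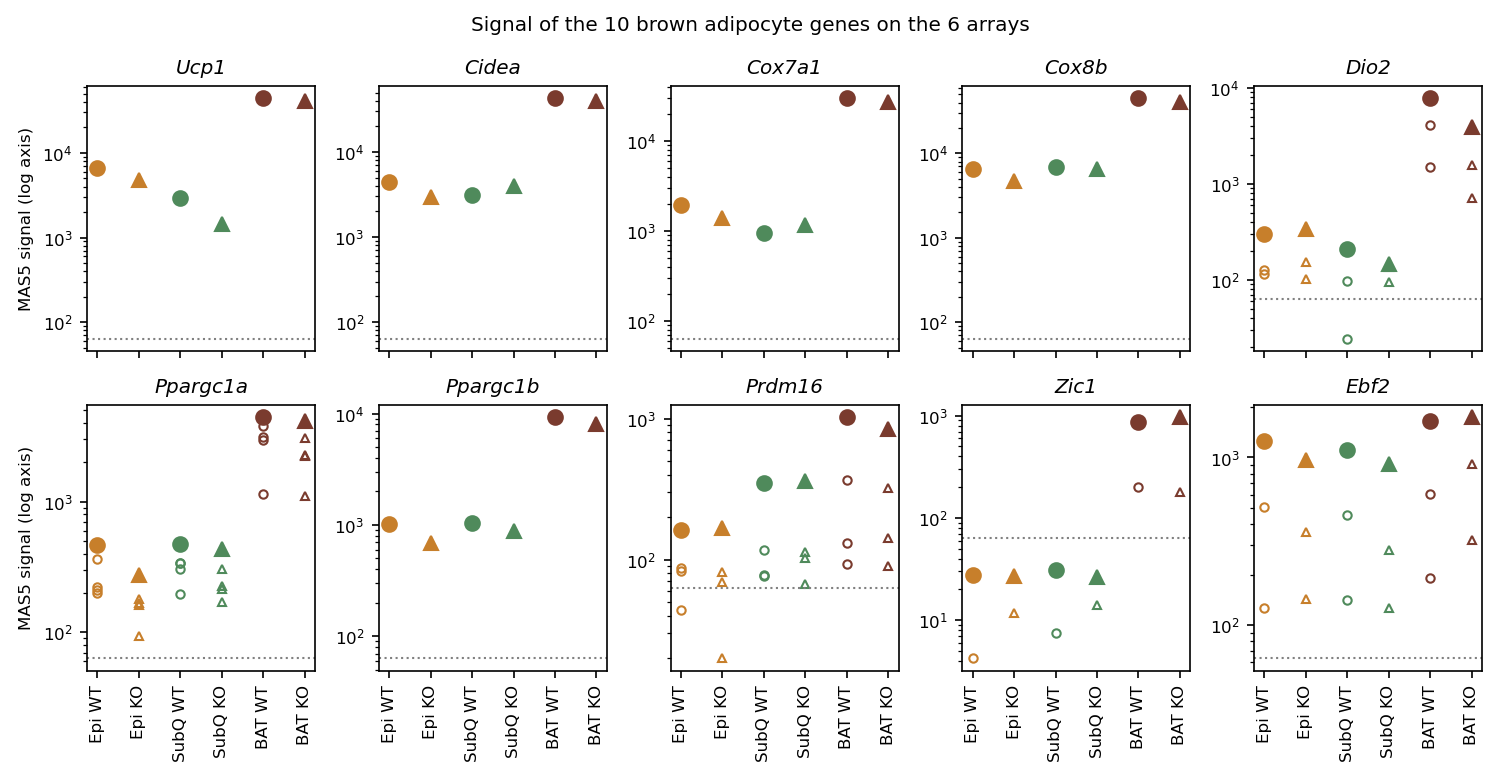
MAS5 signal (log axis) of every probe set of the 10 genes on the 6 arrays; circles are WT, triangles KO, filled symbols the brightest probe set of a gene, open symbols its other probe sets, and the dotted line the floor of 63.2. The brown fat arrays sit above all white fat arrays for 21 of 22 probe sets, and for Zic1 the white arrays lie under the floor.

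Cox7a1 and Cox8b encode subunits of cytochrome c oxidase, in forms that heart and skeletal muscle also use. Cox7a1 signals were 1928.4 and 1391.99 in epididymal, 940.131 and 1181.56 in subcutaneous and 29969.7 and 26807.8 in brown fat (WT, then KO), a brown fat difference of 4.43 (SE 0.19) or 21.6-fold (limma adjusted p = 0.000437). Cox8b signals were 6565.49 and 4650.84, 6912.4 and 6580.3, and 45165.9 and 40888.9 in the same order, or 7.04-fold higher in brown fat (limma adjusted p = 0.000437). Their widely expressed relatives were higher there too, Cox7a2 by 1.21 (limma adjusted p = 0.00123) and Cox8a by 1.31 (0.00121). Of 15 skeletal muscle markers 0 were called higher in brown fat and 1 lower (8 lower under median centring). Their summed signals were 33554.4 in WT and 9191.44 in KO brown fat. In subcutaneous fat the sums were 80534.3 and 95563.9, and in epididymal fat 10212.9 and 6791.3. Brown fat thus lay between the white depots in both genotypes. The part of muscle in the Cox7a1 and Cox8b differences was not tested.

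Dio2 had a brown fat difference of 4.55 (SE 0.26), or 23.4-fold (limma adjusted p = 0.000441). Its signals were 299.921 and 340.079 in epididymal, 207.766 and 147.663 in subcutaneous and 7811.09 and 3912.58 in brown fat. The liver-type deiodinase Dio1 was under the floor on all 6 arrays. Relatives of other members were mixed: of 10 tested, 6 were higher in brown fat and 1, the Ppargc1a relative Pprc1, was lower (-0.78, limma adjusted p = 0.00792), or 7 and 2 under quantile normalization. Ucp3, the muscle uncoupling protein, was higher by 2.55 (limma adjusted p = 0.00051). Cidec, a relative of Cidea, had a difference of -0.40 and was not called (limma adjusted p = 0.073).

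Among the regulators, Ppargc1a was 10.5-fold (limma adjusted p = 0.000441) and Ppargc1b 9.65-fold (0.000437) higher in brown fat. Ppargc1a signals were 467.54 and 273.437 in epididymal, 477.5 and 435.701 in subcutaneous and 4398.18 and 4097.42 in brown fat. Ppargc1b signals were 1014.47 and 685.967, 1043.11 and 888.393, and 9223.6 and 8103.36 in that order. The 6 arrays fell in the same order for both coactivators, with brown WT highest and epididymal KO lowest, although 2 of the 3 steps between neighbouring white arrays were under the SD between probe sets. That SD describes how far the log2 KO minus WT differences of a gene's probe sets scatter about the gene's mean. It was 0.31 in epididymal and 0.32 in subcutaneous and brown fat. The spread between mice is not in it.

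Prdm16 had a smaller brown fat difference, 1.94 (SE 0.14), or 3.83-fold (limma adjusted p = 0.000598), with signals of 160.794 and 168.334 in epididymal, 351.554 and 362.292 in subcutaneous and 1020.08 and 846.309 in brown fat. Averaged over its 4 probe sets the difference was 1.23. Ebf2 had the smallest: 1252.78 and 963.407, 1101.19 and 919.266, and 1658.55 and 1732.73, a 1.61-fold difference (0.69, SE 0.15, limma adjusted p = 0.0139). The Ebf2 call was lost with no filter on dim genes (adjusted p = 0.0638), without the epididymal KO array (0.0515) and without the brown KO array (0.0852). Of its relatives, Ebf3 was higher in brown fat by 0.66 (limma adjusted p = 0.011), and Ebf1 had a difference of 0.24 (0.206).

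Zic1, a zinc finger gene that marks classical brown fat as opposed to beige fat, was the one member that white fat did not show. Its signals were 27.868 and 27.1643 in epididymal and 31.1629 and 26.3292 in subcutaneous fat, all under the floor, and 875.912 (WT) and 960.112 (KO) in brown fat. Measured against the floor, brown fat was at least 14.5-fold higher, or at least 2.99-fold higher by its dimmer probe set 1439627_at. Zic1 was above the floor on 2 arrays and so stayed outside the limma fit, which needed 3. Zic2 and Zic5 were under the floor on all 6 arrays.

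Lists of other genes of the same programme were laid beside the members. Of 16 other brown fat effector genes tested, 14 were higher in brown fat and 0 lower, among them the genes of fatty acid activation (Slc27a2, 45.2-fold), elongation (Elovl3, 31.0-fold), binding (Fabp3, 29.1-fold) and release (Acot11, 27.2-fold). Of 25 regulators 11 were higher and 4 lower, led by Ppara (13.9-fold), Esrrg (at least 9.61-fold), Sirt3 (6.39-fold) and Esrra (5.40-fold), nuclear receptors and a mitochondrial deacetylase of oxidative metabolism. Of 11 repressors of the programme 0 were higher and 5 lower, including Rbl1 (5.76-fold lower), Nrip1 (3.97-fold), Zfp423 (2.30-fold) and Tle3 (1.91-fold). Of 12 white adipocyte genes 11 were lower in brown fat, and of 9 general adipocyte markers 6 were higher and 0 lower, with a median of 0.64, but 1 higher and 2 lower under quantile normalization. The macrophage list (8 of 8 lower in brown fat), the lymphocyte list (7 of 7) and the fibroblast and precursor list (7 of 7) moved with the same contrast. In whole tissue, fewer cells of a type and less RNA per cell cannot be told apart, and the part of these cells in the members' differences was not tested.

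The white depots were compared next. Ucp1 was lower in subcutaneous than in epididymal fat, with both subcutaneous arrays (2934.34 and 1427.83) under both epididymal arrays (6648.75 and 4782.71). The difference, subcutaneous minus epididymal, was -1.46 (SE 0.25, interval -2.09 to -0.84), or 2.75-fold lower (limma adjusted p = 0.0413). Prdm16 went the other way, 2.17-fold higher in subcutaneous fat (1.12, SE 0.16, limma adjusted p = 0.0271), and its 2 arrays of each depot did not overlap, but with its 4 probe sets averaged the difference was 0.50 and was not called. These were the 2 of 9 members called, 1 in each direction, beside 3.91% of genes called higher and 1.16% lower. Neither call was stable: both were lost under quantile normalization (adjusted p = 0.0539 for Ucp1 and 0.0599 for Prdm16), and the number of members called ranged from 0 to 4 over the alternatives. It was 0 without epididymal WT, without epididymal KO or without subcutaneous KO, and 1 (Ucp1) without subcutaneous WT.

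Counted without a test, 3 members (Ucp1, Cox7a1 and Dio2) were lower on both subcutaneous than on both epididymal arrays, where 24.7% of all genes were. Cox8b and Prdm16 were higher on both, where 25.5% of all genes were. Cox7a1 had a difference of -0.64 (limma adjusted p = 0.196) and Dio2 of -0.87 (0.184). The remaining members differed by between -0.13 (Ebf2) and 0.35 (Ppargc1a), with intervals that include 0. Beige adipocyte markers differed from Ucp1 in direction: 5 of 10 were higher in subcutaneous fat and 0 lower, led by Shox2 (12.2-fold), Epsti1 (6.17-fold), Tbx1 (at least 3.16-fold) and Tnfrsf9 (at least 3.05-fold). Among the effector genes 1 of 16 was lower, Slc27a2 by 4.12-fold (limma adjusted p = 0.0291), and among the regulators 2 of 25 were higher, Tbx15 (at least 6.93-fold) and Lhx8 (at least 3.79-fold). Markers of other cells moved with the depot as well. All 7 lymphocyte markers tested were higher in subcutaneous fat, with summed signals of 16396.8 and 15248.9 beside 1345.03 and 1051.07 in epididymal fat, and all 5 mesothelial markers tested were lower. Skeletal muscle markers, of a tissue that also makes Cox7a1 and Cox8b, had a median difference of 3.91 with 2 of 15 called higher (12 under median centring). General adipocyte markers had a median difference of -0.18 with 0 of 9 called. The part of these cells in the differences of the members and of the beige markers was not tested.

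**Figure D2:**
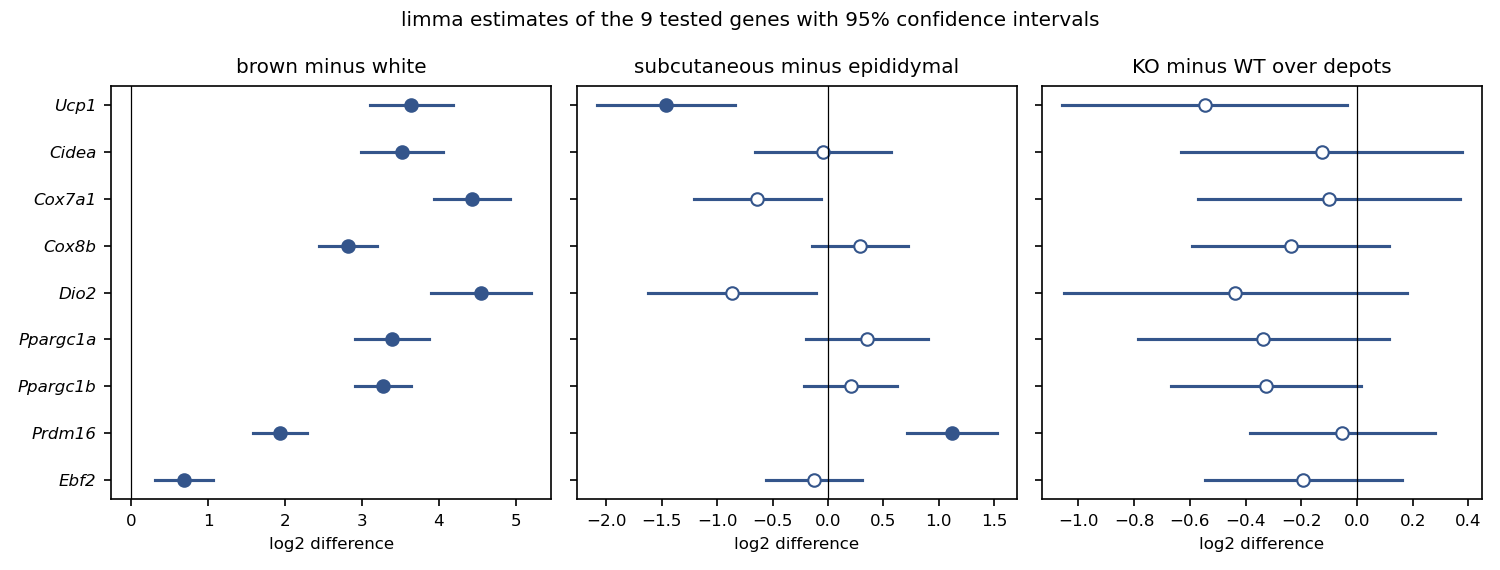
Log2 differences of the 9 tested genes (points) with 95% confidence intervals (lines) for brown minus white, subcutaneous minus epididymal and KO minus WT over depots; filled points have an adjusted p under 0.05 over 13232 genes. All 9 points are filled for brown fat, 2 (Ucp1 and Prdm16) for subcutaneous fat and none for genotype.

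KO and WT were then compared inside each depot. In epididymal fat 7 of 9 members measured were lower in KO and 2 higher, with a median of -0.48 beside -0.02 over all 13244 genes measured, of which 53.4% were lower. The same 7 were lower by more than the SD between probe sets, as were 19.3% of all genes, and 0 were higher by more than it (14.5% of all genes). No member reached 2-fold, past which 1.44% of all genes were lower and 0.883% higher. Ppargc1a had the lowest value, -0.77 (467.54 in WT, 273.437 in KO), and its 5 probe sets were all lower, by -1.11 to -0.38, with 2 of them past 2-fold. Cidea followed with -0.58, Ppargc1b with -0.56, Cox8b with -0.50, Ucp1 with -0.48, Cox7a1 with -0.47 and Ebf2 with -0.38. Ucp1 thus stood at 71.9% of WT and Cidea at 67.1%. Dio2 (0.18) and Prdm16 (0.07) were within the SD of 0, and the 3 Dio2 probe sets were split, 2 higher and 1 lower.

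Most other genes of the programme lay on the same side in epididymal fat. Of 16 effector genes 14 were lower in KO (median -0.39, and 11 lower with a median of -0.29 under median centring), with Pank1 (2.16-fold) and Acot11 (2.05-fold) past 2-fold, and of 23 regulators 17 were lower (median -0.15, or -0.02 under median centring), with Irf4, an interferon regulatory factor that acts with Ppargc1a on Ucp1, 3.19-fold lower. The effector gene Otop1 (1.80-fold) and the regulator Esrrb (at least 1.53-fold) were higher. Repressors had a median of 0.06, with Zfp423 at 0.69. General adipocyte markers were lower for 8 of 9 with a median of -0.13, but for 4 of 9 under median centring, and had summed signals of 186158 in WT and 168218 in KO. Skeletal muscle markers were lower for 14 of 15, with a median of -1.31 and summed signals of 10212.9 and 6791.3. Macrophage markers were higher for 8 of 8 (median 0.20), and mesothelial (5 of 6, median -0.38) and lymphocyte markers (5 of 7, median -0.37) were mostly lower. The part of these cell types in the members' values was not tested.

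In subcutaneous fat 6 of 9 members measured were lower in KO and 3 higher, where 45.4% of all genes were lower. Under median centring 7 were lower and 2 higher, with a median of -0.28 beside -0.12 over all genes. Ucp1 had a signal of 2934.34 in WT and 1427.83 in KO, a difference of -1.04 that left 48.7% of the WT signal. It was the only member past 2-fold (2.06-fold lower), where 0.75% of 13871 genes were at least 2-fold lower and 2.21% higher, and 0.627% of genes had a value as low. It has 1 probe set on the array, so no second one speaks to this value. Cidea and Cox7a1 had the opposite sign, 0.32 and 0.33. Cox8b stood at -0.07, Ppargc1b at -0.23, Ebf2 at -0.26, Ppargc1a at -0.13 and Prdm16 at 0.04. Of the 5 Ppargc1a probe sets 4 were lower in KO, the lowest at -0.99 (1434099_at, 339.166 and 170.929), and the mean of all 5 was -0.31. Dio2 had -0.49 in its brightest probe set, but the other 2 were higher in KO (0.59 and 0.49, the first against a WT array under the floor). The member median on the deposited scale was -0.13 beside 0.04 over all genes. On that scale 2 members were lower by more than the SD (12.8% of all genes) and 2 higher (19.4%). The 2 higher were Cidea and Cox7a1, which each had 0.18 under median centring, inside the SD.

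The effector genes split, 9 higher and 8 lower in subcutaneous KO fat (8 and 9 under median centring), from Otop1 (3.50-fold higher) to Slc27a2 (3.16-fold lower). Cited1 was at least 2.26-fold lower and Ckmt2 2.10-fold higher. Of 25 regulators 18 were lower and 7 higher, where 45.4% of all genes were lower. Esrrg was at least 2.83-fold higher, Lhx8 1.78-fold lower and Irf4 1.77-fold lower. Beige markers were lower for 7 of 11, with Tmem26 2.07-fold lower and Tbx1 1.36-fold higher. Skeletal muscle markers were higher for 13 of 15 (median 0.27, summed signals 80534.3 and 95563.9). General adipocyte markers had a median of -0.02 (0.05 under quantile normalization) and macrophage markers one of -0.50, and their part in the Ucp1 value was not tested.

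**Figure D3:**
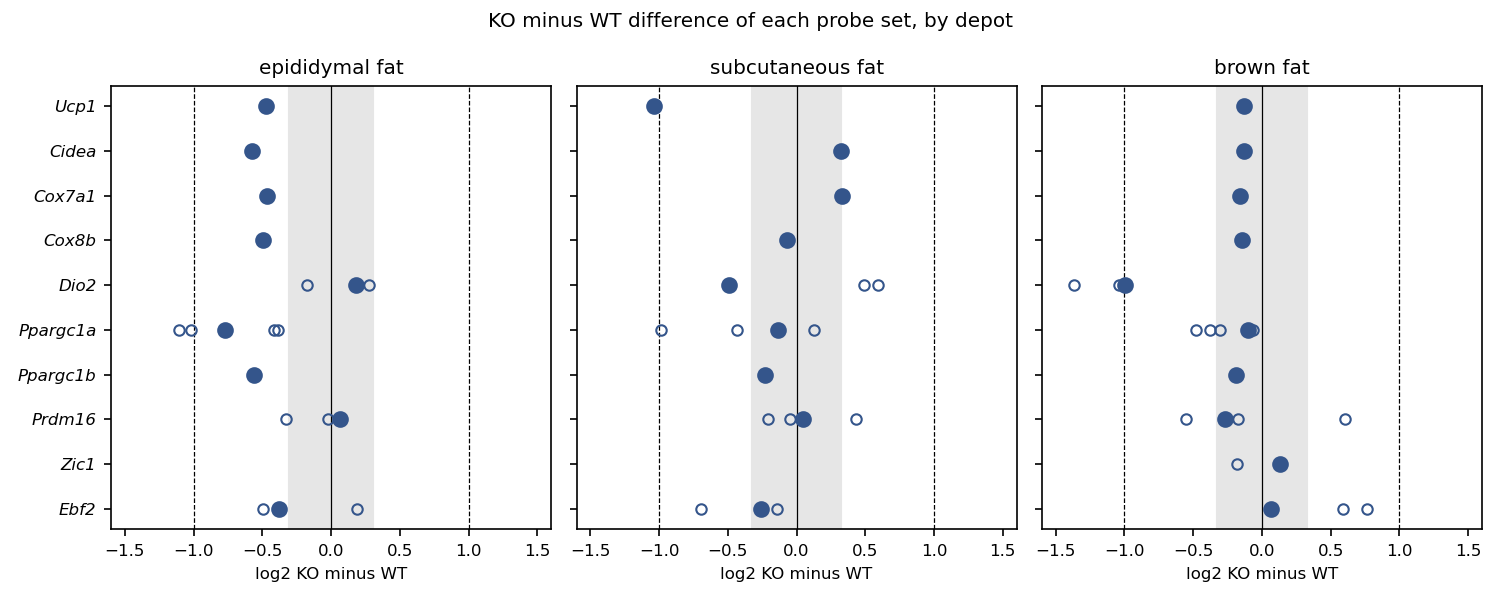
Log2 KO minus WT difference of each measured probe set in the 3 depots; filled points are the brightest probe set of a gene, open points its others, the grey band spans the SD between probe sets on either side of 0 and dashed lines mark 2-fold. Epididymal points lie mostly left of the band, in subcutaneous fat Ucp1 (-1.04) and 1 dimmer Ppargc1a probe set (-0.99) lie lowest, and in brown fat the 3 Dio2 points lie between -1.37 and -0.997 with the rest nearer 0.

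In brown fat 8 of 10 members were lower in KO with a median of -0.14, beside -0.03 over all 13778 genes (53.7% of them lower), and under median centring this direction was not kept (5 lower, 5 higher, median 0.000921) while the median of all genes moved to 0.11. Relative to all genes the member median was -0.11 on both scales and -0.064 under quantile normalization. Dio2 stood apart from the others. Its signal was 7811.09 in WT and 3912.58 in KO, a difference of -0.997 that left 50.1% of the WT signal, just short of the 2-fold line (2.42% of all genes were past it downwards and 1.11% upwards). All 3 of its probe sets were lower, 1418938_at by 1.04 (1481.89 and 720.555) and 1426081_a_at by 1.37 (4061.97 and 1576.7), so that 2 of the 3 passed 2-fold. It was the only member lower by more than the SD (20.1% of all genes), and 0 were higher by more than it (13.6%).

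The other effector members sat close together in brown fat. Ucp1 had -0.13 (44367.1 and 40618.7), Cidea -0.13, Cox8b -0.14 and Cox7a1 -0.16, between 89.4% and 91.6% of the WT signal. Ppargc1a had -0.10, with 5 of 5 probe sets lower on the deposited scale (-0.48 to -0.07; the brightest has 0.04 under median centring), Ppargc1b -0.19 and Prdm16 -0.27. The 4 Prdm16 probe sets were split, 3 lower and 1 higher. Zic1 had 0.13 in its brighter and -0.18 in its dimmer probe set. Ebf2 had 0.06, and its 2 dimmer probe sets were higher by 0.59 and 0.76, so that all 3 were higher in brown fat and all 3 lower in subcutaneous fat.

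Of 16 effector genes 10 were lower in KO brown fat and 6 higher, with a median of -0.12, but 7 lower and 9 higher under median centring (median 0.02). Ckmt2, a mitochondrial creatine kinase that muscle also makes, was at least 5.38-fold lower, Slc27a2 1.99-fold lower and Eva1a 1.87-fold higher. Regulators had a median of -0.05 (0.09 under median centring) and repressors one of 0.14. Skeletal muscle markers were lower in KO for 15 of 15, 14 of them past 2-fold, with a median of -4.25 and summed signals of 33554.4 and 9191.44. Cox7a1 and Cox8b, which muscle also makes, had -0.16 and -0.14 on the same arrays. General adipocyte markers had a median of -0.09 (0.04 under median centring) with summed signals of 246056 and 224139. Fibroblast and precursor markers were lower for 7 of 7 (median -0.57) and macrophage markers for 7 of 7 (median -0.21). The part of these cells in the members' values was not tested.

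**Figure D4:**
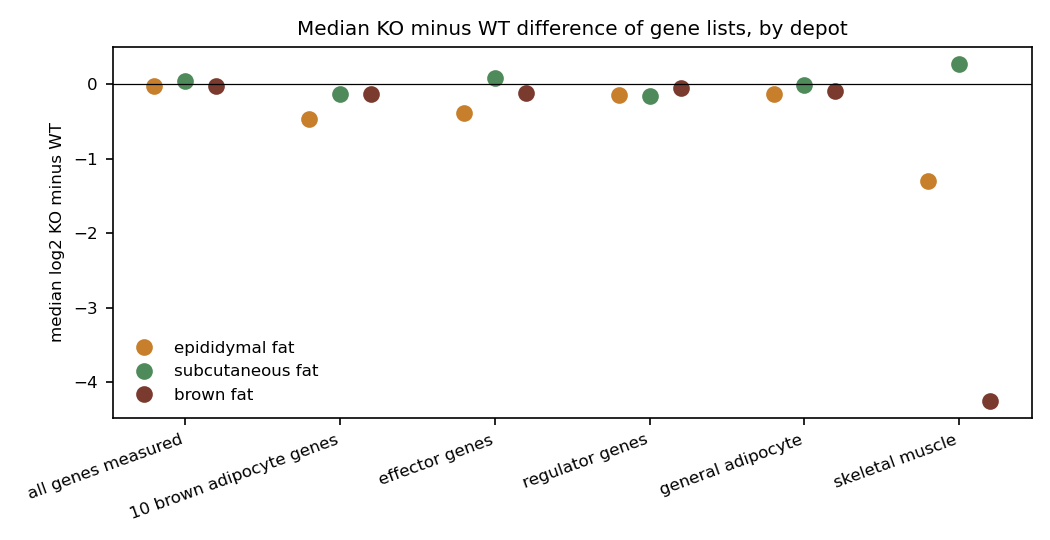
Median log2 KO minus WT difference of all measured genes, the 10 brown adipocyte genes and 4 other gene lists, by depot. For the 10 genes the medians are -0.48 (epididymal), -0.13 (subcutaneous) and -0.14 (brown), and for the skeletal muscle list -1.31, 0.27 and -4.25.

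Across the depots 4 of the 9 members measured in all 3 were lower in KO each time, namely Ucp1, Cox8b, Ppargc1a and Ppargc1b, and 0 were higher each time, though under median centring Ucp1 (0.01) and Ppargc1a (0.04) were not lower in brown fat. Among all genes 17.2% were lower in all 3 and 16.2% higher. The limma test of KO against WT over depots called 0 of the 9 members and 0% of 13232 genes, higher or lower (smallest adjusted p 0.443). At an unadjusted p under 0.05 it had 503 genes higher and 600 lower, with 1 member among them. That member was Ucp1, with -0.55 (SE 0.20, interval -1.06 to -0.04), lower in 3 of 3 depots, unadjusted p = 0.0404 and limma adjusted p = 0.59. Ppargc1b had -0.33 (interval -0.67 to 0.01, limma adjusted p = 0.598) and Dio2 -0.44 (-1.05 to 0.18, adjusted p = 0.655). The remaining 6 had estimates from -0.34 (Ppargc1a) to -0.05 (Prdm16). The member median was -0.24 beside -0.01 over all genes. These p-values take the depots as replicates, so they measure how alike the 3 depots are. The same test called 0 genes in each of the lists named above.

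Whether the gap between brown and white fat differed with genotype was tested by a brown by genotype term. It called 0 of 9 members and 0% of 13232 genes in either direction (at an unadjusted p under 0.05, 370 genes were higher and 697 lower, with 0 members among them). For Ucp1 the gap was 3.33 in WT and 3.96 in KO, a difference of 0.63 (interval -0.30 to 1.56, limma adjusted p = 0.698). For Dio2 it was 4.97 in WT and 4.13 in KO, a difference of -0.84 (-1.87 to 0.19, adjusted p = 0.661). For Ebf2 it was 0.50 and 0.88, a difference of 0.38 (-0.29 to 1.06, adjusted p = 0.733). The fit has 1 residual degree of freedom before limma's moderation, and none of these 3 intervals leaves out 0.

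The order of the arrays is given as a description of the members, with no share over all genes beside it. Brown WT was the highest array for 8 of the 10 genes, and brown KO for Zic1 and Ebf2. For every member but Dio2 (0.997) the step between both brown arrays was inside the brown fat SD between probe sets (0.32). Under median centring Ucp1 (0.01), Cidea (0.01) and Ppargc1a (0.04) were also higher in brown KO. Below brown fat, 8 different orders of the 4 white arrays were seen among the 9 members measured there, the shared one being that of Ppargc1a and Ppargc1b. Ucp1 was the most spread of the 9 in white fat, 4.66-fold from epididymal WT down through epididymal KO and subcutaneous WT to subcutaneous KO, and each of the 3 steps was larger than the SD between probe sets. The others spanned from 1.36-fold (Ebf2) to 2.30-fold (Dio2), each with at least 1 of 3 steps inside that SD, so parts of their orders are not settled beyond it. Steps beyond it were also seen, the widest between subcutaneous WT and epididymal KO fat for Prdm16 (1.06). That SD comes from KO minus WT differences inside a depot, so it gives no error for a step between depots. Ucp1 has 1 probe set, so its order is not settled by it either.

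Genes with a pattern most like that of Ucp1 were found by Pearson's r of log2 signal over the 6 arrays, among 1996 other genes that passed the filter of the limma fit and had a range of at least 2 on the log2 scale. The 6 points share the contrast of brown and white fat, so r is high for many genes and is given as a description. The 5 highest were Acad11 (r = 0.996), Slc27a2 (0.996), Dnajc11 (0.993), Gpam (0.991) and Hoxa5 (0.989). Slc27a2 had signals of 734.443 and 531.159 in epididymal, 269.165 and 85.2773 in subcutaneous and 19623.3 and 9866.16 in brown fat, in the same order of arrays as Ucp1. Acad11, an acyl-CoA dehydrogenase, also kept that order, with 5067.12 and 4354.43, 3571.86 and 2759.02, and 12728.4 and 10628.6. Of the members, Dio2 had r = 0.970 (27 non-members as high) and Cox7a1 0.957 (73). Cidea (0.925), Ppargc1b (0.919), Cox8b (0.903) and Ppargc1a (0.902) followed, and Prdm16 had 0.683.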

How the data were processed

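Expression was read from 1 table of Affymetrix probe set intensities of 6 arrays of total RNA, 1 per depot and genotype. Per the submitters' processing notes, the deposited intensity values came from MAS5 in Affymetrix Expression Console. No source used here gives versions or the genome build of the array design. MAS5 scales each array alone, so it hides any change in the amount of RNA per cell and leaves dim probe sets noisy. Of 45037 probe sets other than controls, 34945 had 1 symbol, 932 several and 9160 none. By gene identifier, 34741 were found in RefSeq (GRCm38.p6) and 0 symbols changed.

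Signals were raised to the floor (40th percentile, 63.2) and put on the log2 scale. A depot counts as measuring a gene if either of its arrays exceeded the floor, and folds against a dimmer array are written "at least". limma 3.58.1 (R 4.3.3) was fitted with depot and genotype on the 13232 genes that exceeded the floor on 3 or more arrays, with Benjamini-Hochberg adjustment over all of them and a threshold of 0.05. A second fit added a brown by genotype term. The fit was tested on simulated data. With 1 array per group, p-values rest on the spread left between depots after genotype and depot are taken out, not on the spread between mice. Other steps used Python 3.11.15 with pandas 2.3.3, numpy 2.4.6, matplotlib 3.10.9 and scipy 1.17.1.

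The members and gene lists were chosen with earlier results of these data known. Named are the 10 genes, their relatives, up to 4 members of another list with the largest difference in the comparison described, the 5 genes most like Ucp1, and Kdm4b. Alternatives were quantile normalization, median centring, floors at the 20th and 60th percentiles or none, no filter, all probe sets averaged, cross-hybridising probe sets left out, an intensity trend, a fit across probe sets, thresholds of 1.5-fold and 3-fold, and arrays or depots left out.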

Additional observations from a re-analysis of the deposited data

Results flagged for a closer look

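Cidea and Cox7a1 went opposite ways in the white depots, with 1 array per group, and the difference between the depots was not tested. Cidea had a KO minus WT difference of -0.58 in epididymal fat and 0.32 in subcutaneous fat. Cox7a1 had -0.47 in epididymal fat and 0.33 in subcutaneous fat. For both genes the epididymal value is larger than the SD between probe sets of 0.31, and the subcutaneous value is close to that depot's SD of 0.32. Under median centring the subcutaneous value was 0.18 for both genes, inside that SD. The epididymal values were then -0.44 (Cidea) and -0.34 (Cox7a1). Skeletal muscle markers, of a tissue that also makes Cox7a1, had medians of -1.31 and 0.27 in the same depots, and their part in these values was not tested.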

How the results depend on the processing

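Inside a depot, 165 member values stayed within the SD between probe sets of the reported value and 2 moved by more, both with all probe sets averaged (Dio2 in subcutaneous fat, 0.20, and Ebf2 in brown fat, 0.47). Many of these values could not move, so the count of 165 is no measure of stability. Averaging cannot change genes with 1 probe set. The other floors and leaving out cross-hybridising probe sets gave most members the reported value again. The number of members past the fold threshold went from 0 to 1 in epididymal fat at 1.5-fold (Ppargc1a), from 1 to 0 in subcutaneous fat at 3-fold, and from 0 to 1 in brown fat at 1.5-fold and with all probe sets averaged (Dio2 in both). In the limma fits 474 member values kept direction and side of the threshold, 19 lost the call, 2 gained it and 0 changed sign while called. KO against WT over depots and the brown by genotype term called 0 members under every alternative run. Over all genes the intensity trend called 19 higher and 14 lower by genotype, and 9 and 25 for the brown by genotype term, and median centring called 4 and 0, and 56 and 91. Leaving out arrays was not run for that term, which then has no residual degrees of freedom. Brown against white fat called 8 to 10 members.

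Subcutaneous against epididymal fat was the least stable. Its 2 calls became 0 with no filter, quantile normalization, the floor at the 20th percentile or no floor, 1 with all probe sets averaged (Ucp1) and 4 with median centring (Ucp1, Cox7a1, Dio2 and Prdm16). With 1 array left out the count ranged from 0 to 2. Over all genes the 517 higher and 153 lower calls became 62 and 22 with no filter, 102 and 13 with no floor, 51 and 7 with the floor at the 20th percentile, 762 and 530 with an intensity trend, and 517 and 1379 with median centring. They became 34 and 4 without epididymal WT, 29 and 5 without epididymal KO, 329 and 67 without subcutaneous WT, and 259 and 103 without subcutaneous KO. The share of higher calls was 77.2%, and 62.3% and 27.3% under quantile normalization and median centring. Of genes past 2-fold between KO and WT, the shares higher in epididymal, subcutaneous and brown fat were 38.0%, 74.7% and 31.5%, against 51.5%, 63.7% and 44.7% under quantile normalization and 56.4%, 49.8% and 51.4% under median centring. The cause was not tested.

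No paired analysis by mouse was possible because the labels tie no samples to a mouse and each group has 1 array, and the limma fit pairs KO with WT only by depot. Signal over background limits Zic1 in white fat and the dimmer probe sets of Dio2 and Prdm16.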
